A study of Mus musculus with 6 samples.

Results

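Smooth muscle contractile genes encode the machinery by which the muscle of vessel and airway walls shortens. The group described here holds 10 such genes, Acta2, Actg2, Myh11, Tagln, Cnn1, Lmod1, Smtn, Myocd, Mylk and Tpm2, taken by symbol from the 24239 genes of the deposited table. All 10 were found. Each was measured in ventricular RNA of C57BL/6 male mice aged 8 to 10 weeks, in 3 sham mice and in 3 that had been paced over a course of 8 days. The pacing came from a bipolar catheter placed in the esophagus near the atria. The heart was driven for 45 min a day at a cycle length of 80 ms, between periods of 3 min at 120 ms, first for 5 days and then, once 2 rest days had passed, for 3 days. Sham mice were handled as controls without pacing, and the labels give no transgene or drug in either group. The comparison asks whether transcripts of smooth muscle differed in the ventricles after repeated fast pacing.

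In smooth muscle, calcium bound to calmodulin activates myosin light chain kinase, which phosphorylates the light chain of smooth muscle myosin so that it pulls on thin filaments of smooth muscle actin. Thin filaments carry tropomyosin and calponin, and the set of contractile genes is switched on by serum response factor together with its partner myocardin. In the ventricle these transcripts come mainly from the media of coronary arteries and arterioles, while myocardin and the smoothelin gene are also active in heart muscle. The tissue is bulk, so more smooth muscle cells and more RNA per cell cannot be told apart.

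Levels are FPKM, that is fragments scaled to transcript length and to library size, and are comparable between genes per length. Fold changes are differences of mean log2(FPKM + 1), paced less sham, with the SE and p of limma, a linear model fitted to the 11994 genes whose mean over mice was 1 FPKM or more. This scale understates the change of low genes. Values ± are SD over 3 mice per group. Effective depth, read from the steps of the lowest values, ranged from 6274000 to 8908000 fragments per library. That puts the lowest value of Actg2 at about 9 fragments and that of Cnn1 at about 17, while Acta2, Myh11, Tagln, Tpm2, Smtn, Myocd and Mylk had at least 186 in every mouse. No gene passed an adjusted p under 0.05 in limma (0.0% of genes higher and 0.0% lower). Genes at an unadjusted p under 0.05 made up 5.17% on the higher and 3.69% on the lower side. The ventricular light chain gene Myl2 stood at 25481 to 39377 FPKM in the 6 libraries, and the atrial light chain gene Myl7 at 31.4 to 3520.

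Promoters of contractile genes often hold the site that serum response factor binds, known as the CArG box, in which a core of A and T lies between CC and GG. RefSeq promoter sequences (GRCm38.p6, 250 bases before to 50 after the start) were held in the reference table for 6 of the 10 genes, Acta2, Cnn1, Lmod1, Smtn, Mylk and Tpm2. Those of Acta2, Lmod1 and Smtn are shown, since Acta2 holds the matches described next and the other two are a gene with higher paced values and a gene without. Capitals mark matches to the CArG box with at most 1 G or C in the core, or to CATTCC, the site of TEAD factors, on either strand, and no matches overlap. Acta2 is at chr19:34255324-34255623 on the minus strand, Lmod1 at chr1:135324563-135324862 on the plus strand and Smtn at chr11:3539243-3539542 on the minus strand.
Acta2: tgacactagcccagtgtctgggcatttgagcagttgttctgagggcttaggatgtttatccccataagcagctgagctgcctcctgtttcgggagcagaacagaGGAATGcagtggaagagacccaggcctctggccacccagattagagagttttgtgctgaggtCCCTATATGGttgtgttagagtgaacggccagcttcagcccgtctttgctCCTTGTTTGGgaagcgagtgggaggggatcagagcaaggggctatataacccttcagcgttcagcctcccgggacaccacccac
Lmod1: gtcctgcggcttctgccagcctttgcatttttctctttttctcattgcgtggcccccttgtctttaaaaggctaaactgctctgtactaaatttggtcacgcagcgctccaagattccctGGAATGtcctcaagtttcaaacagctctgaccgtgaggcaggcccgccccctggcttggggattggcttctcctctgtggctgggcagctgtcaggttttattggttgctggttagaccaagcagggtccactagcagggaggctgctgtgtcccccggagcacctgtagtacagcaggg
Smtn: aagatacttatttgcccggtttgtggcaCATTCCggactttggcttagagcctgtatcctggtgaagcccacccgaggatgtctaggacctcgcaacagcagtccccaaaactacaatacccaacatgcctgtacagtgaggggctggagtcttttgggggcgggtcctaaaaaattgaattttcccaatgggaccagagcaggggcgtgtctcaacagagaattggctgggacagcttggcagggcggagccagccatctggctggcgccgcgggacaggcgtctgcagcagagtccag
Acta2 held 2 CArG matches, CCCTATATGG at -84 to -75 and CCTTGTTTGG at -34 to -25, each with 1 deviation in the core. Positions count from the recorded RefSeq start as 0, which need not be the main start of transcription. Each of the other 5 promoters held 0 in these windows. Among 32851 promoters of this length, 9.98% held such a match and 1.63% a match with no deviation. CATTCC was found in Acta2, Lmod1, Smtn and Mylk, on 1 strand each, and in 14.7% of all promoters. It was thus held by Acta2 and Lmod1, which are among the genes with higher paced values described next, and by Smtn and Mylk, which are not. Cnn1 and Tpm2, also among the genes with higher paced values, held 0. The window of Mylk lies at the deposited start, 34784950, while the GENCODE gene starts at 34745210.

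Of the 10 genes, 7 had higher values in paced ventricles at an unadjusted p under 0.05 and 0 had lower values, against the 5.17% and 3.69% of all genes. A positive fold change was found in 8 of the 10, as in 48.2% of all genes. The 7 were Acta2, Actg2, Myh11, Tagln, Cnn1, Lmod1 and Tpm2. None passed after adjustment over all genes (lowest limma adjusted p = 0.287). The median log2 fold change was 0.73, beside -0.01 over all genes tested. In 6 of the 10 each paced mouse lay above each sham mouse, as in 6.24% of all genes, and in 1, Myocd, each lay below, as in 6.97%. The fold changes of the other 3, Mylk, Smtn and Myocd, were 0.25, -0.11 and -0.17 on the log2 scale.

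**Figure D1:**
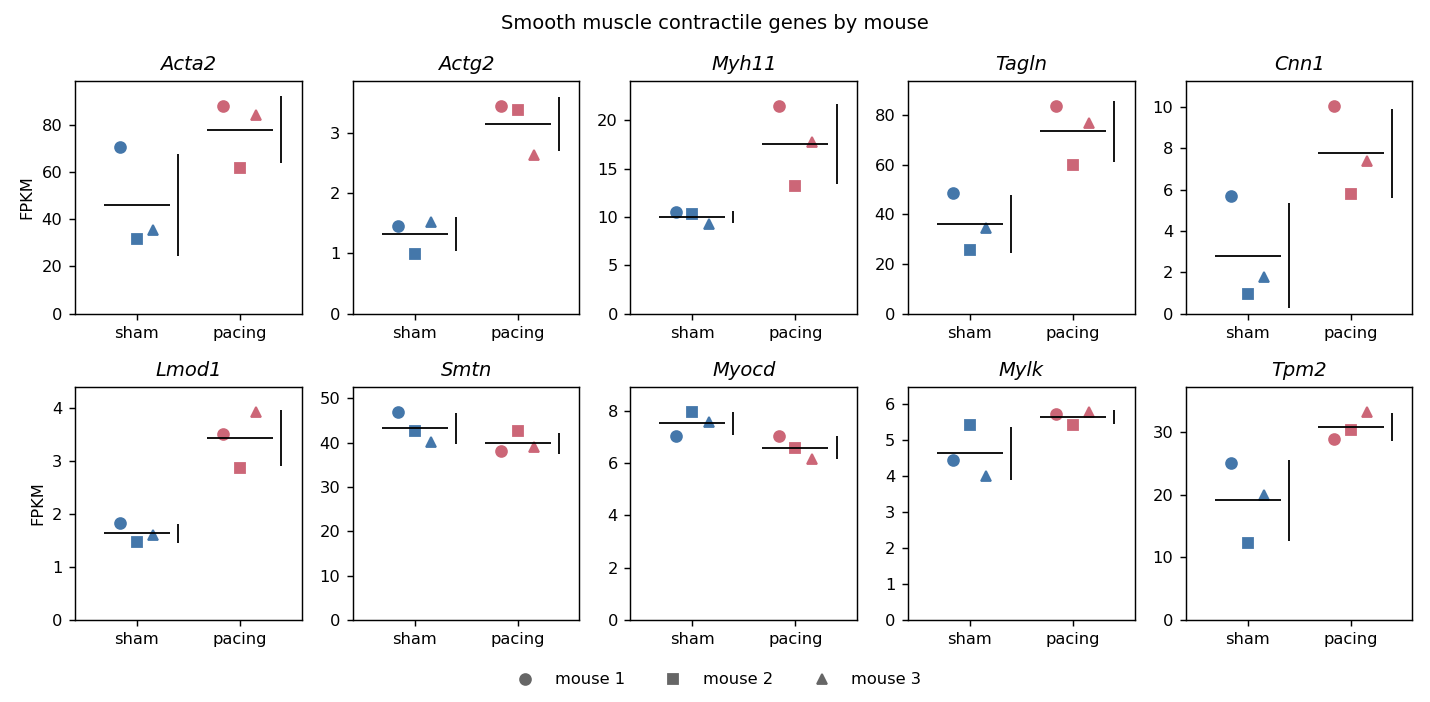
FPKM of the 10 contractile genes on linear axes from 0, with sham mice in blue, paced mice in red, the symbol giving the mouse number, horizontal lines the mean and vertical bars ± SD (n = 3 per group). Paced mice lie above sham mice for Actg2, Myh11, Tagln, Cnn1, Lmod1 and Tpm2, sham mouse 1 overlaps the paced mice for Acta2, and Smtn, Myocd and Mylk differ little.

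Myh11 encodes the smooth muscle myosin heavy chain, the motor of the thick filament and the most restricted marker of the lineage. It lies on chromosome 16 from 14194527 to 14291408 (mm10). Its level was 10.5, 10.3 and 9.31 FPKM in sham mice 1, 2 and 3 and 21.5, 13.2 and 17.8 FPKM in paced mice 1, 2 and 3. The sham mice lay close together, the paced mice were spread, and the groups did not overlap. The means were 10.0 ± 0.625 and 17.5 ± 4.14 FPKM, a ratio of means of 1.75 (log2 fold change 0.72, SE 0.16, limma adjusted p = 0.316). The light chain gene Myl9, whose product is the target of the kinase, stood at 123, 48.3 and 68.4 FPKM in sham and at 118, 104 and 115 FPKM in paced mice. Sham mouse 1 was thus the highest of all for Myl9 (log2 fold change 0.59, SE 0.28, limma adjusted p = 0.592).

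Acta2 encodes smooth muscle alpha-actin, the main thin filament protein of vessel walls and also a product of activated fibroblasts. It lies on chromosome 19 from 34240336 to 34255373. Its level was 70.6, 31.6 and 35.5 FPKM in the sham mice and 87.9, 61.7 and 84.0 FPKM in the paced mice. Sham mouse 1 exceeded paced mouse 2, so the groups overlapped. The means were 45.9 ± 21.5 and 77.8 ± 14.1 FPKM (log2 fold change 0.82, SE 0.28, limma adjusted p = 0.484). Without sham mouse 1 the log2 fold change of Acta2 was 1.18 (limma adjusted p = 0.0177). Without sham mouse 2 it was 0.61 (limma adjusted p = 0.754) and without sham mouse 3 it was 0.69 (limma adjusted p = 0.811), and in neither fit was the unadjusted p under 0.05.

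Actg2, the gamma-actin of visceral smooth muscle, lies on chromosome 6 from 83512909 to 83536251 and was the least abundant of the 10 in sham ventricles. It stood at 1.45, 0.993 and 1.53 FPKM in sham and 3.45, 3.37 and 2.64 FPKM in paced mice. The groups did not overlap, with each paced value at least 2.64 FPKM and no sham value above 1.53 FPKM. The log2 fold change was 0.84 (SE 0.15, limma adjusted p = 0.287), with a ratio of means of 2.38. The actins resemble each other in sequence, but none of the 1885 windows of 151 bases (the read length) in the Acta2 transcript, nor of the 1183 in that of Actg2, occurred in a transcript of another gene. This exact match does not cover reads that differ from both copies, so a split of fragments between actins was not tested.

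Tagln encodes transgelin, an actin-binding protein of the smooth muscle thin filament. Its level was 48.4, 25.6 and 34.3 FPKM in sham and 83.7, 59.9 and 76.6 FPKM in paced mice. Every paced mouse lay above every sham mouse, and the means of 36.1 ± 11.5 and 73.4 ± 12.2 FPKM differed by a ratio of 2.03 (log2 fold change 1.04, SE 0.21, limma adjusted p = 0.315). Without sham mouse 1 the log2 fold change of Tagln was 1.26 (limma adjusted p = 0.0182), and without sham mouse 2 it was 0.82 (limma adjusted p = 0.568). On chromosome 9 the annotated gene runs from 45929619 to 45936058, inside a deposited span of 72.4 kb that takes in 3 other coding genes. It shares 108 exonic bases with Pcsk7 on the opposite strand and 62.4% of its exonic bases with the antisense gene Gm48529. Whether counting used the strand is not stated in the labels, so reads of Tagln and of its antisense partner cannot be told apart. Pcsk7 stood at 7.05 to 8.94 FPKM in the 6 mice, with overlapping groups and below Tagln in each mouse.

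Cnn1 encodes calponin, which binds actin and restrains the myosin motor in mature smooth muscle. It had the largest fold change of the 10. Its level was 5.70, 0.974 and 1.75 FPKM in sham and 10.1, 5.81 and 7.40 FPKM in paced mice. The groups did not overlap, but sham mouse 1 lay just under paced mouse 2. The means were 2.81 ± 2.53 and 7.76 ± 2.14 FPKM (log2 fold change 1.37, SE 0.40, limma adjusted p = 0.433). Without sham mouse 1 the log2 fold change of Cnn1 was 1.88 (limma adjusted p = 0.0141), and without sham mouse 2 it was 1.0 (limma adjusted p = 0.72). Acta2, Tagln and Cnn1 were the only members that passed in the fit without sham mouse 1, in which 0.827% of 11975 genes were higher at an adjusted p under 0.05. The gene lies on chromosome 9 from 22099216 to 22109630 in GENCODE, inside a deposited span of 334 kb with 11 other coding genes.

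Lmod1 encodes leiomodin, which nucleates actin filaments in smooth muscle. It lies on chromosome 1 from 135324813 to 135368065. It stood at 1.83, 1.48 and 1.61 FPKM in sham and 3.50, 2.87 and 3.92 FPKM in paced mice. The sham values were tight and the groups did not overlap, with a log2 fold change of 0.74 (SE 0.13, limma adjusted p = 0.287). Tpm2 encodes beta-tropomyosin, which lies along the actin filament in smooth and slow skeletal muscle. The gene is on chromosome 4 from 43513726 to 43523554, a deposited span that takes in 1 other coding gene. It stood at 25.1, 12.2 and 20.0 FPKM in sham and 28.9, 30.3 and 33.2 FPKM in paced mice. Here the sham mice were the more spread, the paced mice the closer together, and the groups did not overlap (log2 fold change 0.71, SE 0.21, limma adjusted p = 0.447). Without sham mouse 2, the lowest, the log2 fold change of Tpm2 was 0.44 (limma adjusted p = 0.663).

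**Figure D2:**
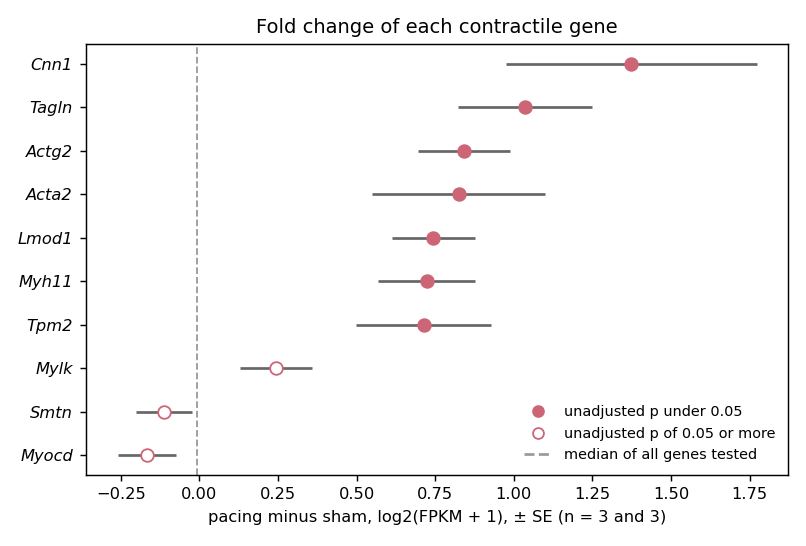
Log2 fold change of each contractile gene, pacing minus sham on log2(FPKM + 1), with bars of ± SE from limma (3 mice per group), filled where the unadjusted p is under 0.05, and a dashed line at the median of all genes tested. Cnn1 is at 1.37 and Tpm2 at 0.71, while Mylk at 0.25, Smtn at -0.11 and Myocd at -0.17 are open points.

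Mylk, the gene of the smooth muscle light chain kinase, also expressed in non-muscle cells, stood at 4.46, 5.44 and 4.01 FPKM in sham and 5.73, 5.42 and 5.79 FPKM in paced mice. Sham mouse 2 overlapped the paced mice, and the log2 fold change was 0.25 (SE 0.11, limma adjusted p = 0.59). Mylk lies on chromosome 16 from 34784950 to 35002434 and shares 4.9% of its exonic bases with the antisense gene E130310I04Rik. Smtn, which encodes the cytoskeletal protein smoothelin, lies on chromosome 11 from 3517522 to 3539292. Smtn shares 16.3% of its exonic bases with Gm11946 on the opposite strand, so the limit on strand given for Tagln holds here and for Mylk. It stood at 46.9, 42.7 and 40.0 FPKM in sham and at 38.0, 42.6 and 38.9 FPKM in paced mice, and the groups overlapped (log2 fold change -0.11, SE 0.09, limma adjusted p = 0.764). Myocd encodes myocardin, the coactivator of serum response factor, and lies on chromosome 11 from 65176571 to 65269989. It stood at 7.05, 7.96 and 7.57 FPKM in sham and at 7.04, 6.59 and 6.14 FPKM in paced mice. Each paced value was lower, though paced mouse 1 and sham mouse 1 were nearly level (log2 fold change -0.17, SE 0.09, limma adjusted p = 0.655). After rescaling FPKM to the same sum in each mouse, 0 members lay wholly below sham.

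The authors' deposited table lists 5 of the 10 genes as called at a q under 0.05, all with higher group values in pacing. In that direction 1.23% of all its 24341 rows were called. Unlike the other shares given here, this one also counts genes under 1 FPKM. The 5 were Tpm2, Acta2, Myh11, Tagln and Lmod1, with log2 fold changes in the authors' deposited table of 0.69, 0.76, 0.80, 1.02 and 1.07 and a q of 0.003275 for each. Actg2 missed the threshold in the authors' deposited table, with a log2 fold change of 1.25 and a q of 0.0616. Cnn1 had the largest fold of the members there, 1.47, beside a q of 0.896. Mylk, Myocd and Smtn were not called in the authors' deposited table, with q-values of 0.509, 0.864 and 0.974. The group FPKM of Cnn1 in the authors' deposited table, 2.79 and 7.71, lie close to the means over mice.

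In order of level, per length, Acta2 led in both groups. In sham ventricles Acta2, Smtn and Tagln followed each other with overlapping values, then Tpm2, Myh11 and Myocd, each separated from its neighbours, and then Mylk, Cnn1, Lmod1 and Actg2, where Mylk overlapped Cnn1, Cnn1 overlapped Lmod1 and Lmod1 overlapped Actg2. In paced ventricles Tagln stood second with Smtn clearly below it. Tagln at 73.4 ± 12.2 FPKM and Smtn at 39.9 ± 2.43 FPKM no longer overlapped there. Cnn1 moved above Myocd and Mylk in mean, overlapping Myocd.

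Within a mouse, the members did not keep fixed proportions among the sham animals. Log2 ratios, differences of log2(FPKM + 1) that do not depend on scaling between libraries beyond the added constant, were compared for 3 pairs of genes. Acta2 over Myh11 was 2.64, 1.53 and 1.82 in sham and 1.98, 2.14 and 2.18 in paced mice. Its sham values spread more widely than the paced values and enclosed them, and the difference of the means, 0.10, was smaller than the sham SD of 0.58 (exact permutation test, two-sided, p = 0.9, adjusted over 3 ratios p = 0.9). Cnn1 over Myh11 was -0.78, -2.52 and -1.91 in sham and -1.02, -1.06 and -1.16 in paced mice. The difference of 0.65 was again within the sham SD of 0.88 (exact permutation p = 0.4, adjusted p = 0.9). Actg2 over Acta2 differed by 0.02 between groups (exact permutation p = 0.9, adjusted p = 0.9). This small difference depends on the added constant, since Actg2 is low. With 0.1 FPKM added in place of 1, Actg2 over Acta2 differed by 0.37 (exact permutation p = 0.5). Cnn1 over Myh11 then differed by 0.99 (exact permutation p = 0.4) and Acta2 over Myh11 by 0.07 (exact permutation p = 0.9). With 3 mice per group this test cannot give a p below 0.1. Sham mouse 1 stood out in both ratios to Myh11, since Acta2 and Cnn1 were high there and Myh11 was not. Paced mice 1, 2 and 3 had nearly the same ratio of Cnn1 to Myh11.

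**Figure D3:**
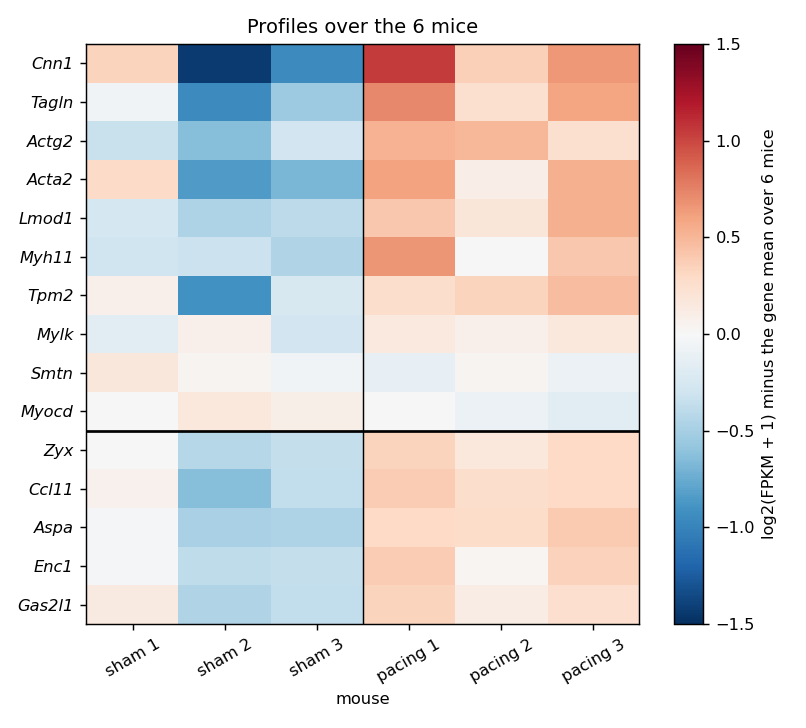
Heat map of log2(FPKM + 1) minus the mean of the gene over the 6 mice, with the 10 contractile genes above the line and the 5 genes closest to their mean profile below it. Sham mouse 2 is the darkest blue for Cnn1, Tagln and Acta2, paced mouse 1 the darkest red for Cnn1, and Smtn and Myocd are nearly colourless.

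Paced mouse 1 had the highest value of Acta2, Actg2, Myh11, Tagln and Cnn1, and paced mouse 3 that of Lmod1, Mylk and Tpm2. Sham mouse 2 had the lowest value of Acta2, Actg2, Tagln, Cnn1, Lmod1 and Tpm2. The mean centred profile of the 10 genes was -0.03, -0.53 and -0.38 in the sham mice and 0.43, 0.18 and 0.33 in the paced mice, on the log2 scale. The genes with the smallest root mean square distance from this profile over the 6 mice were Zyx (0.06), which encodes the focal adhesion protein zyxin, Ccl11 (0.07), a chemokine for eosinophils, Aspa (0.08), Enc1 (0.09) and Gas2l1 (0.09). The median distance over 11983 genes was 0.38. Zyx stood at 27.6, 20.4 and 21.4 FPKM in sham and at 35.2, 31.1 and 34.4 FPKM in paced mice. All 6 libraries enter this measure, and it shares their differences in tissue makeup.

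The wider contractile pathway was read from lists of its other genes. Of 22 further filament and dense body genes, 17 had a positive fold change, against 48.2% of all genes. At an unadjusted p under 0.05, 3 had higher values and 0 lower, against 5.17% and 3.69% of all genes. The median log2 fold change was 0.09. Those with the smallest p were Flna, the actin crosslinker filamin A, Itga8, an integrin of smooth muscle, and Pdlim3. Flna stood at 29.0, 24.2 and 22.1 FPKM in sham and 34.7, 30.6 and 32.2 FPKM in paced mice, without overlap (log2 fold change 0.37, SE 0.11, limma adjusted p = 0.447). Itga8 stood at 2.83, 1.85 and 1.42 FPKM in sham and 5.00, 2.50 and 5.46 FPKM in paced mice, with overlap. For Pdlim3 the values were 20.8, 8.62 and 9.25 FPKM in sham and 17.0, 21.0 and 21.2 FPKM in paced mice. Sham mouse 1 lay within the paced range of Itga8 and of Pdlim3. Cald1, the gene of caldesmon, had a log2 fold change of 0.03, and Tpm1, which is dominated here by heart muscle, one of -0.21.

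Of 21 genes of contraction signalling, 19 were abundant enough to test. The channel subunit genes Kcnmb1 and Kcnma1 were not, at up to 1.20 and 0.19 FPKM. The median log2 fold change was -0.02, with 8 positive and 11 negative. In each direction 1 gene had an unadjusted p under 0.05, against 5.17% of all genes higher and 3.69% lower. Gucy1a3, a subunit of the nitric oxide receptor, stood at 10.4, 7.28 and 7.57 FPKM in sham and 9.89, 13.5 and 15.5 FPKM in paced mice, with sham mouse 1 above paced mouse 1. Agtr1a, the angiotensin receptor, was at 25.5, 31.1 and 29.2 FPKM in sham and 24.5, 23.5 and 23.2 FPKM in paced mice, each paced value being lower (log2 fold change -0.25, SE 0.09, limma adjusted p = 0.499). For Adra1a, an alpha-adrenergic receptor, the log2 fold change was -0.35 with an SE of 0.18. The kinase genes Rock1 and Rock2 and the small GTPase gene Rhoa, which set the calcium sensitivity of contraction, had log2 fold changes of 0.10, -0.06 and -0.02.

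A list of 18 regulators of smooth muscle genes held transcription factors and also Notch pathway and growth factor genes. Of these 18, 5 had higher and 1 had lower values at an unadjusted p under 0.05. The shares of all genes were 5.17% and 3.69%. Their median log2 fold change was 0.06 for the regulators. Srf, the gene of serum response factor itself, was 1 of the 5. It stood at 17.7, 18.4 and 17.5 FPKM in sham and 21.0, 21.3 and 19.2 FPKM in paced mice, without overlap (log2 fold change 0.19, SE 0.08, limma adjusted p = 0.562). The smallest p were those of Jag1, a Notch ligand, at 2.96, 3.07 and 3.29 FPKM in sham and 3.78, 4.09 and 3.94 FPKM in paced mice, and of Foxo4. Foxo4 stood at 21.7, 23.1 and 24.0 FPKM in sham and 26.2, 28.3 and 25.8 FPKM in paced mice. Heyl, a Notch target, was on the lower side at 10.8, 10.2 and 9.39 FPKM in sham and 7.39, 8.63 and 8.92 FPKM in paced mice. For Jag1, Foxo4 and Heyl the groups did not overlap. Over the list, 4 genes lay wholly above sham and 2 wholly below, against 6.24% and 6.97% of all genes. Klf2, 1 of the 5, had overlapping groups (log2 fold change 0.30, SE 0.12, limma adjusted p = 0.543). Klf4, a factor known to oppose contractile genes in smooth muscle, was also 1 of the 5. It stood at 11.9, 12.6 and 13.2 FPKM in sham and 20.4, 13.8 and 15.2 FPKM in paced mice, without overlap (log2 fold change 0.34, SE 0.13, limma adjusted p = 0.54). The myocardin-related factors Mkl1 and Mkl2 had log2 fold changes of 0.06 and 0.05. Among the other actins, Actc1, the cardiac alpha-actin, stood at 7976, 7527 and 7767 FPKM in sham and 5272, 6724 and 5995 FPKM in paced mice. Each paced value of Actc1 was lower, in the direction opposite to Acta2 (log2 fold change -0.38, SE 0.12, limma adjusted p = 0.477). Acta1 and Actg1 had log2 fold changes of 0.39 and 0.12 with overlapping groups.

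Pericytes, the mural cells of capillaries, carry little of the contractile set. Their 9 markers had a median log2 fold change of -0.19, with 3 positive and 6 negative. Of the 9, 3 had lower values at an unadjusted p under 0.05, against 3.69% of all genes. Rgs5, a regulator of G protein signalling, stood at 126, 170 and 147 FPKM in sham and 101, 126 and 124 FPKM in paced mice. Abcc9, which encodes a sulfonylurea receptor subunit of potassium channels, stood at 42.6, 69.5 and 48.4 FPKM in sham and 44.6, 38.7 and 36.4 FPKM in paced mice. Summed pericyte FPKM ranged from 307 to 384 in sham and from 263 to 297 in paced mice, without overlap, while the summed FPKM of the 10 contractile genes ranged from 139 to 222 and from 232 to 290. The sums thus lay on opposite sides of sham. Of 6 endothelial markers, 0 had a positive fold change, against 48.2% of all genes. Their sums ranged from 371 to 415 FPKM in sham and from 321 to 371 FPKM in paced mice, with overlap. Ventricular muscle markers, 0 of 6 positive, had a median log2 fold change of -0.20. They summed to 62648 to 82281 FPKM in sham and to 59394 to 61886 FPKM in paced mice, without overlap. Lower sums in paced mice were thus not particular to pericyte markers.

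**Figure D4:**
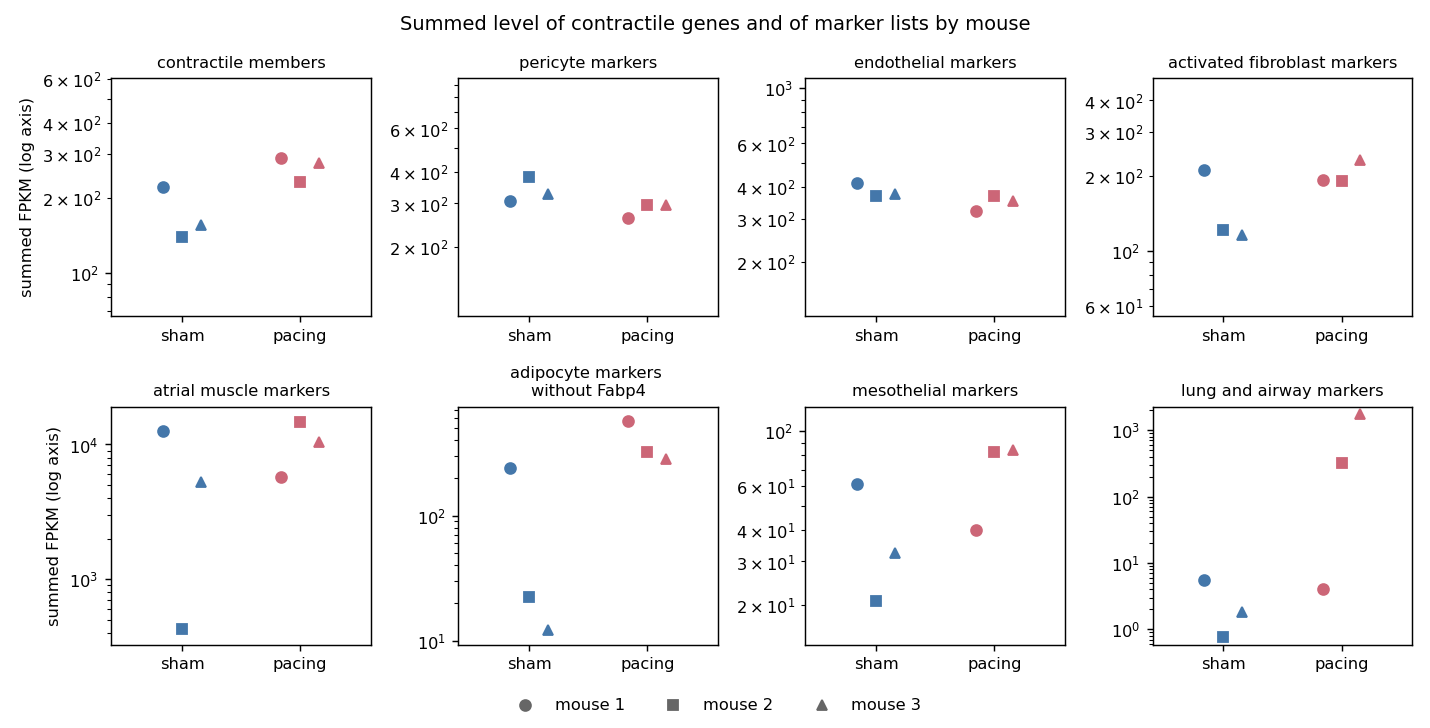
Summed FPKM of the contractile genes and of 7 marker lists in each mouse, on log axes of differing range, with sham in blue, paced in red and the symbol giving the mouse number. Contractile genes are at 139 to 222 in sham and 232 to 290 in paced mice, pericyte sums are lower in paced mice, and the lung sum is raised in paced mice 2 and 3 alone.

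Lung, adipocyte, atrial, mesothelial and activated fibroblast markers had positive median fold changes. Of their sums, only that of adipocyte markers without Fabp4 separated the groups. Lung and airway markers, whose tissue holds smooth muscle of its own, summed to 0.771 to 5.56 FPKM in sham and to 4.07, 318 and 1734 FPKM in paced mice 1, 2 and 3. Of these 10 markers, 5 were at the floor in sham mouse 1 and 7 in each of sham mice 2 and 3, against 3 in paced mouse 1 and 0 in the others. The 9 tested had a median log2 fold change of 2.47. Of the 9, 8 had higher values at an unadjusted p under 0.05, against 5.17% of all genes. Paced mouse 1, whose lung sum lies within the sham range, had the highest contractile sum of all, 290 FPKM. It lay above each sham mouse for 4 of the 10 lung markers, at 1.6 FPKM against at most 0.585 for Napsa, 0.530 against at most 0.439 for Ager, and 0.334 and 0.0474 for Scgb3a2 and Sftpa1, which were at the floor in sham. With the lung level as a covariate 5 of the 10 contractile genes had higher values at an unadjusted p under 0.05, against 3.41% of all genes. Acta2 and Tpm2 were no longer among them, with log2 fold changes of 0.84 and 0.57. Without paced mice 2 and 3 the median log2 fold change of the 10 genes was 0.86 and 6 of them had higher values at an unadjusted p under 0.05, against 3.02% of all genes. That fit has 1 paced mouse, which is assumed to vary like the sham mice. The part of lung tissue in the contractile levels was not tested beyond these fits.

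Adipocyte markers without Fabp4, a gene also active in cardiac endothelium, summed to 239, 22.3 and 12.2 FPKM in sham mice 1, 2 and 3 and to 569, 320 and 282 FPKM in the paced mice. Each paced mouse lay above each sham mouse, and sham mouse 1 and paced mouse 1 were the highest of their groups, as they were for Acta2, Tagln and Cnn1. With Fabp4 included, the 6 adipocyte markers had a median log2 fold change of 2.74. Of the 6, 5 had higher values at an unadjusted p under 0.05, against 5.17% of all genes. With the level of Adipoq, Plin1 and Cidec as a covariate, 2 of the 10 genes, Actg2 and Lmod1, kept an unadjusted p under 0.05, against 2.03% of all genes. Their log2 fold changes were then 0.70 and 0.65, while that of Myh11 was 0.56, that of Tagln 0.48, that of Tpm2 0.30, that of Cnn1 0.11 and that of Acta2 -0.012. This level differs between the groups, so the fat level and pacing cannot be told apart in that fit.

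Of 6 atrial markers, 6 had a positive fold change, against 48.2% of all genes. Their median log2 fold change was 1.97, with 0 at an unadjusted p under 0.05. They summed to 12690, 426 and 5305 FPKM in sham and to 5751, 14673 and 10497 FPKM in paced mice. Sham mice 1, 3 and 2 stand in this order for atrial markers and for Acta2, Tagln, Cnn1, Lmod1 and Tpm2. Paced mouse 1 was lowest of its group for atrial markers and for Tpm2, in the middle for Lmod1 and highest for Acta2, Tagln and Cnn1. The atrial level used as a covariate was that of Myl7, Myl4 and Sln alone. With it, 7 of the 10 genes had higher values at an unadjusted p under 0.05, against 3.39% of all genes. They were not the same 7, since Acta2 was no longer among them and Mylk was. The log2 fold changes of Tpm2, Acta2 and Cnn1 were then 0.37, 0.55 and 0.91 in place of 0.71, 0.82 and 1.37. The means of Myl7, Myl4 and Sln were also higher in paced mice, with overlapping groups. Atrial level and pacing can thus be told apart only in part in that fit. Mesothelial markers, 6 of 6 positive, summed to 61.6, 20.7 and 32.5 FPKM in sham and to 40.2, 82.2 and 84.2 FPKM in paced mice. Activated fibroblast markers, 8 of 8 tested positive, summed to 210, 121 and 116 FPKM in sham and to 191, 191 and 231 FPKM in paced mice. The median log2 fold change was 0.80 for mesothelial and 0.56 for fibroblast markers, beside 0.73 for the contractile genes. At an unadjusted p under 0.05, 3 of 6 mesothelial and 5 of 8 fibroblast markers had higher values, against 5.17% of all genes. Sham mouse 1 was in the paced range for the mesothelial, fibroblast and atrial sums. The part of fibroblasts and mesothelium in the contractile levels was not tested.

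**Figure D5:**
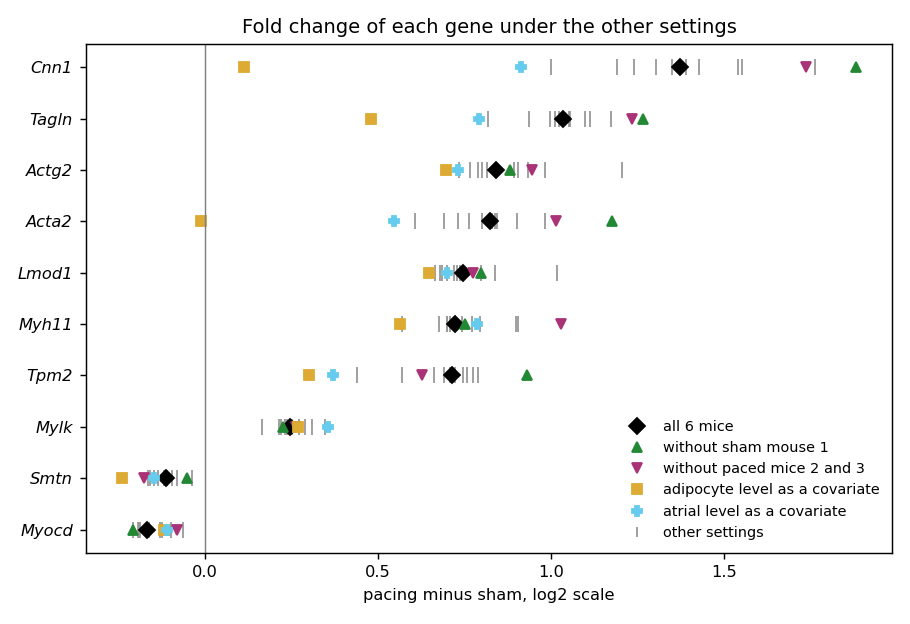
Log2 fold change of each contractile gene, pacing minus sham, with all 6 mice and under the other settings, each symbol being 1 fit. Cnn1 runs from 0.11 with the adipocyte level as a covariate to 1.88 without sham mouse 1, Acta2 reaches -0.012, and Actg2, Lmod1 and Myh11 stay at 0.56 or above.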

How the data were processed

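Stranded polyA libraries of ventricular RNA were sequenced as paired reads of 151 bases, per the labels' protocols. Per the submitters' processing notes, the tools were Cufflinks, Cuffdiff, Bowtie2 2.2.6, TopHat2 2.1.0 and FastQC 1.0.0, and the build was mm10. Which gene annotation was used, and whether counting used the strand, is not given in the sources used here. FPKM values were deposited by the authors per gene and mouse, with 0.01 as the lowest value, beside a table of group FPKM, log2 fold changes and q-values (the authors' test). Starts in both tables count from 0 (1 lower than in RefSeq for 8545 of 11746 genes with the same end), so 1 was added. Cacna2d1 has a missing value and was left out.

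FPKM is not a count, so limma 3.58.1 in R 4.3.3 (moderated with a mean trend, with no covariate) was fitted on log2(FPKM + 1). Its two-sided p-values were adjusted by Benjamini-Hochberg across the 11994 genes whose mean was 1 FPKM or more. Tested on 10 simulations of this comparison with 11994 genes, the fit recovered 85.4% of log2 changes of 1 and 97.7% of changes of 2. Each simulation changed 200 random genes and drew noise separately for each gene. A mean of 7.9 unchanged genes were called. Swings shared by many genes of a library were not simulated, so these shares need not hold for the members. Depth was read from the low values of 493 genes with 1 transcript and 1 exon, all whole multiples of 1 fragment within 0.05. Fragments per member use the GENCODE M21 main transcript and cover counting error only. The labels call the 3 samples of a group replicates and the design describes separate mice. Transcript positions are mm10.

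The members and all lists were chosen with earlier results of these data known, so they carry no test of their own. The rule for named genes took all members, the 3 genes of smallest p in each pathway list, the 2 most abundant of each marker list, and the 5 closest profiles. Myl9, Cald1, Tpm1, Srf, Klf4, Klf2, Mkl1, Mkl2, Rhoa, Rock1, Rock2, Kcnmb1, Kcnma1, Pcsk7, Napsa, Ager, Scgb3a2 and Sftpa1 were named after their values were seen, and the adipocyte sum without Fabp4 was chosen then. Whether mice of the same replicate number share a batch cannot be told from these data. Over the genes tested, their deviations from the group means had correlations of -0.125, -0.022 and -0.02, which cannot exclude it. For Acta2, Tagln and Cnn1 both groups stand in the order of mice 1, 3 and 2. With replicate number as a block, the SE of these genes was 0.17, 0.11 and 0.21 in place of 0.28, 0.21 and 0.40. That of Actg2, Lmod1, Mylk, Myocd and Smtn was larger with the block.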

Additional observations from a re-analysis of the deposited data

How the results depend on the processing

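Of the fold changes of members, 174 kept their direction and their side of the adjusted threshold under the other settings. The 3 of Acta2, Tagln and Cnn1 passed without sham 1, and 1, that of Acta2, turned to -0.012 with the adipocyte covariate. Of all genes, 0 were higher at an adjusted p under 0.05, but 6 without a filter, 7 with a replicate block, 2 with the lung covariate and 0 to 99 when a mouse was left out (99 without sham 1, 7 without pacing 1, 1 without pacing 3), while 0 to 1 were lower (1 without sham 1, 1 without pacing 1). With the block no member passed (lowest limma adjusted p = 0.053 for Tagln). At an unadjusted p under 0.05 the 620 higher and 442 lower genes became 969 and 148 when each library was rescaled to 1 sum, 514 and 609 with median centring and 537 and 581 with quantile normalization. Of the members, 0 to 3 were higher at an adjusted p and 6 to 7 at an unadjusted p when a mouse was left out (3.42% to 8.3% of all genes). The latter count was 4 without a filter (3.29%), 5 with a filter at 5 FPKM, which removes Actg2 and Lmod1 (4.66%), 8 after rescaling (8.07%), 5 with the lung covariate and 2 with the adipocyte covariate. Members wholly above sham numbered 6 to 8 and wholly below 1 to 2 when a mouse was left out, which separates more of all genes too (10.5% to 15.4% above and 11.3% to 16.5% below). After rescaling 6 lay wholly above (11.2% of all genes) and 0 wholly below (2.72%). With a mouse left out, Acta2 over Myh11 ran from -0.13 (without sham 2) to 0.42, Cnn1 over Myh11 from 0.26 to 1.13 and Actg2 over Acta2 from -0.29 (without sham 1) to 0.21, and it was -0.18 without pacing 2. The replicate block left the ratios at 0.10, 0.65 and 0.02, while adding 0.1 FPKM in place of 1 gave 0.07, 0.99 and 0.37. The cause of these shifts was not tested. About 9 to 33 fragments lie behind each Actg2 value, where 10 fragments give a coefficient of variation of 31.6% from counting alone.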
